A study of Mus musculus with 412 samples.

Results

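The genes described here are 10 components of Toll-like receptor signalling, taken from 45513 genes listed for single mouse sensory neurons that innervate the colon. They were chosen by name as 6 receptors (Tlr2, Tlr3, Tlr4, Tlr5, Tlr7 and Tlr9), the co-receptors Ly96 and Cd14, and the adaptors Myd88 and Ticam1. Neurons had been labelled by injecting the retrograde tracer Fast Blue into the colonic wall of healthy C57BL/6J mice. Thoracolumbar (TL, T10 to L1) and lumbosacral (LS, L5 to S2) dorsal root ganglia were dissociated apart from each other, and labelled cells were picked by hand for single-cell sequencing. The labels name no transgene, drug or stimulus for either segment. They also tie no neuron to a mouse, so each segment counted as 1 sample and no p-value was computed.

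Toll-like receptors recognise conserved microbial molecules and some products of damaged host cells. Tlr2, Tlr4 and Tlr5 act at the cell surface, where they bind bacterial lipoproteins, lipopolysaccharide and flagellin, while Tlr3, Tlr7 and Tlr9 bind nucleic acids in endosomes. Tlr4 needs the protein encoded by Ly96 (MD-2) to bind lipopolysaccharide, and Cd14 hands lipopolysaccharide to this pair. Most of the receptors signal through the adaptor Myd88, Tlr3 signals through Ticam1 (TRIF), and Tlr4 uses both. In the gut wall, sensory endings lie beneath an epithelium that faces bacteria, while in the ganglion satellite glia enwrap the cell bodies.

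Values were available for 325 neurons, of which 167 were TL and 158 were LS, in 6 library plates. Plates 2 to 6 held neurons of both segments, and plate 1 held 5 TL neurons. Depth ran from 416007 to 12058968 recovered reads per neuron. Its median was 2709639 reads for TL neurons and 3202776 for LS neurons. Levels are given as TPM, which is reads divided by gene length and rescaled to sum to 1000000 in each neuron. A gene was counted as present in a neuron at 10 TPM or more. Each interval on a share is a 95% exact binomial one (Clopper-Pearson) and reflects counting error alone, since reads carried no molecular identifiers and neurons of 1 culture are not replicates. The neuronal markers Snap25, Tubb3, Uchl1 and Prph were at 10 TPM or more in all 325 neurons. Fabp7, a marker of satellite glia, was at 10 TPM or more in 216 of 325, comprising 130 TL and 86 LS neurons. Macrophages are rich in Toll-like receptors, and of their 12 markers C1qa, C1qc, Ptprc and Adgre1 reached 10 TPM in 0 neurons, although C1qb did in 196 and Cd68 in 36.

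The adaptors and Ly96 were broadly expressed in colonic neurons, while each receptor was rare. Myd88 (chromosome 9, 119335934 to 119341411, GRCm38) was present in 181 of 325 neurons (55.7%, 95% CI 50.1 to 61.2). Its level ran from 0 through a median of 11.5 to 204 TPM. Ly96 (chromosome 1, 16688051 to 16709611) was present in 109 neurons (33.5%, 95% CI 28.4 to 39.0), with a median of 5.67 and a maximum of 178 TPM. Ticam1 (chromosome 17, 56269319 to 56276786) was present in 92 neurons (28.3%, 95% CI 23.5 to 33.5), with a median of 5.21 and a maximum of 56.5 TPM. The intervals of Ly96 and Ticam1 overlapped, and both lay below that of Myd88. Cd14, on chromosome 18, was present in 17 neurons (5.23%, 95% CI 3.08 to 8.24) and reached 89.1 TPM.

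Among the receptors, Tlr4 (chromosome 4, 66827584 to 66930284) was present in 10 neurons (3.08%, 95% CI 1.49 to 5.59) and reached 19.6 TPM. Tlr5 (chromosome 1, 182954788 to 182976044) and Tlr3 (chromosome 8, 45395665 to 45411080) were each present in 8 neurons (2.46%, 95% CI 1.07 to 4.79), with maxima of 22.6 and 23.0 TPM. The intervals of these 3 receptors overlapped, so their order was not resolved. The highest neuron below the threshold was at 9.501 TPM for Tlr4, 9.49 for Tlr5 and 9.95 for Tlr3. These calls rested on 18 to 281 reads for Tlr4, 38 to 163 for Tlr5 and 10 to 332 for Tlr3. A level above 0 was more frequent, in 55 neurons for Tlr4, 76 for Tlr3 and 35 for Tlr5.

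The other 3 receptors did not reach 10 TPM in any neuron. Tlr2 (chromosome 3, 83836272 to 83841767) was above 0 in 11 neurons and at most 7.68 TPM. Tlr9 (chromosome 9, 106222598 to 106226883) was above 0 in 9 and at most 7.22 TPM. Tlr7 (chromosome X, 167304929 to 167330558) was above 0 in 6 and at most 1.09 TPM, with no more than 6 reads in a neuron. For a count of 0 the limit given is 3 neurons over the number examined, so that 0 of 325 allows a share of up to 0.923%. Neurons with Tlr2, Tlr7 or Tlr9 at 10 TPM, if rarer than this, could be missed and were not excluded by a sample of this size.

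**Figure D1:**
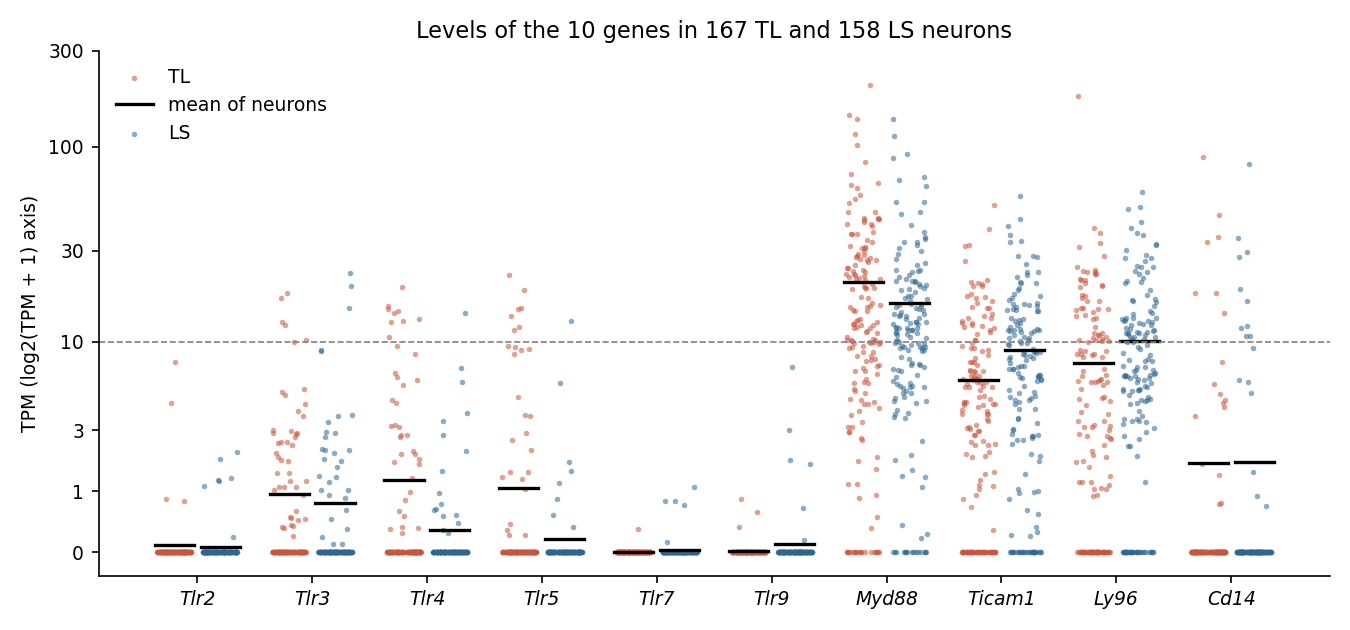
TPM of each of the 10 genes, on a log2(TPM + 1) axis, in every TL (red) and LS (blue) neuron, with a bar at the mean of each group and a dashed line at 10 TPM. Myd88, Ticam1 and Ly96 are spread across the line in both segments, the points of Tlr4 and Tlr5 above the line are nearly all TL, and Tlr2, Tlr7 and Tlr9 have no point above it.

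Spinal pathway was compared next, because TL neurons run in the splanchnic nerve and LS neurons in the pelvic nerve. Tlr4 and Tlr5 were seen mostly in TL neurons. Tlr4 was present in 9 of 167 TL neurons (5.39%, 95% CI 2.49 to 9.98) and 1 of 158 LS neurons (0.633%, 95% CI 0.0160 to 3.48). Mean Tlr4 was 1.29 TPM in TL and 0.292 in LS, 4.41-fold lower in LS, and was lower in LS in each of plates 2 to 6. Tlr5 was present in 7 TL neurons (4.19%, 95% CI 1.70 to 8.45) and 1 LS neuron (0.633%). Its mean of 1.09 TPM in TL and 0.158 in LS differed 6.89-fold, also with the lower mean in LS in 5 of 5 plates. For both receptors the intervals of the 2 shares overlapped. Tlr3 was present in 5 TL and 3 LS neurons, with means of 0.943 and 0.752 TPM.

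Ticam1 and Ly96 had the higher mean in LS, and Myd88 and Cd14 differed less. Ticam1 was present in 56 of 158 LS neurons (35.4%, 95% CI 28.0 to 43.4) and 36 of 167 TL neurons (21.6%, 95% CI 15.6 to 28.6). Its mean was 8.94 TPM in LS and 6.08 in TL, a ratio of 1.47, and it was higher in LS in 4 of 5 plates. Ly96 was present in 39.2% of LS (95% CI 31.6 to 47.3) and 28.1% of TL neurons (95% CI 21.5 to 35.6), with a ratio of means of 1.32. Myd88 was present in 54.4% of LS and 56.9% of TL neurons. Cd14 was present in 10 LS and 7 TL neurons, with means of 1.80 and 1.76 TPM. TL neuron 43 stood apart in Cd14 and Ly96 and in endothelial markers, and without it the ratio of LS to TL means was 1.46 for Cd14 and 1.53 for Ly96.

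A gene was called between 2 groups of neurons when their means differed at least 2-fold, among the 11885 genes present in at least 5% of neurons. Of the 10 genes, Myd88, Ticam1, Ly96 and Cd14 passed that filter, and 0 of these 4 were called between LS and TL. Across all genes compared, 4.11% were called higher and 4.46% lower in LS. Tlr4 and Tlr5 were too rare for the filter. With a wider set of 16752 genes present in at least 4 neurons, which was added after the data had been seen, 7.77% had a mean at least 2-fold higher and 7.49% at least 2-fold lower in LS, the latter including both receptors. TL neurons also carried more glial signal, with a median summed level of 10 satellite glia markers of 2381 TPM (range 50.0 to 103722) against 366 TPM (range 74.3 to 63138) in LS. None of the 10 markers was at 0 throughout, and Dbi and Glul were present in 325 and 317 neurons, so these 2 did not set neurons apart. Among neurons with Fabp7 below 10 TPM, Tlr5 was present in 4 of 37 TL and 1 of 72 LS neurons, Tlr4 in 1 and 0, and Ticam1 in 2 TL (5.41%) and 20 LS neurons (27.8%). The ratio of Ticam1 means in these neurons was 2.19. The part of glial RNA in the segment differences was otherwise not tested.

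At 10 TPM or more, Tlr5 was found mainly in neurons that expressed Cbln2. Cbln2 encodes the secreted synaptic organiser cerebellin 2 and was used by the authors as a marker of the colonic neurofilament subtype mNFa. It was at 10 TPM or more in 17 of 325 neurons, 12 of them TL and 5 LS. Tlr5 was present in 6 of these 17 neurons (35.3%, 95% CI 14.2 to 61.7) and in 2 of the 308 others (0.649%, 95% CI 0.0787 to 2.33). Within the Cbln2 neurons it ran from 0 through a median of 9.03 to 22.6 TPM, while the median of the others was 0. Mean Tlr5 was 7.92 TPM against 0.234 TPM, a 33.9-fold ratio, and was higher in the Cbln2 neurons in 4 of 5 plates. Of the wider gene set, 6.37% had a mean at least 2-fold higher and 31.3% at least 2-fold lower in Cbln2 neurons. In the exception, plate 2, the single Cbln2 neuron (TL neuron 21) had Tlr5 at 0 and Cbln2 at only 16.2 TPM.

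The neurons themselves show how closely the genes went together. The 10 neurons with the highest Cbln2, from 178 to 319 TPM, all had Tlr5, at 5.88 to 22.6 TPM. Of the 7 remaining Cbln2 neurons, TL neuron 38 had Tlr5 at 11.9 TPM, LS neuron 183 had 0.334 TPM and the other 5 were at 0. In all, 11 of the 17 had Tlr5 above 5 TPM, against 3 of 308 neurons with less Cbln2. Lower levels were less selective, since Tlr5 was above 0 in 12 of the 17 and in 23 of the 308. With CPM, in which reads are rescaled in the same way but not divided by gene length, Tlr5 was at 10 or more in 11 of 17 Cbln2 neurons (64.7%) and 3 of 308 others (0.974%). The association was seen in both segments. Tlr5 was present in 5 of 12 TL and 1 of 5 LS neurons with Cbln2, and in 2 of 155 TL and 0 of 153 LS neurons without it.

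Myd88, the adaptor of Tlr5, was seldom found in the same Cbln2 neurons. It was at 0 in 11 of the 17, and at 10 TPM or more in 1 (5.88%, 95% CI 0.149 to 28.7), against 180 of 308 other neurons (58.4%, 95% CI 52.7 to 64.0). Its mean of 2.09 TPM against 19.3 TPM was 9.24-fold lower, and it was lower in 5 of 5 plates. Of the 11 Cbln2 neurons with Tlr5 above 5 TPM, 7 had Myd88 at 0. Cd14 was listed at 0 in all 17 Cbln2 neurons, which allows a share of up to 17.6%. It was present in 17 of 308 others (5.52%, 95% CI 3.25 to 8.69), so its lower share was not resolved. By means, 2 of the 4 genes compared, Myd88 and Cd14, were called lower in Cbln2 neurons. Of all genes compared, 21.6% were called lower and 5.1% higher there. Ticam1 was present in 2 and Ly96 in 5 of the 17 neurons, and neither was called.

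Glial marker levels differed between these groups. The summed satellite glia markers had a median of 300 TPM (range 180 to 4179) in Cbln2 neurons and 1511 TPM (range 50.0 to 103722) in the others, and Fabp7 was at 10 TPM or more in only 1 of the 17. Within the 109 neurons with Fabp7 below 10 TPM, Myd88 was present in 0 of 16 Cbln2 neurons, which allows a share of up to 18.8%, and in 41 of 93 others (44.1%, 95% CI 33.8 to 54.8). Tlr5 was present in 5 of the 16 and in 0 of the 93, with means of 7.67 and 0.146 TPM. The ratio of means was 52.6 for Tlr5, and Myd88 was 7.90-fold lower. Median depth was 2441467 reads in Cbln2 neurons and 2894203 in the others, and median genes detected were 12542 and 13717. Some Cbln2 neurons did not pass a filter at 3 median absolute deviations on depth, genes and mitochondrial share. They were TL neurons 21, 137, 147, 164, 197 and 198 and LS neuron 105. Myd88 was at 0 in all of these except TL neuron 137, at 5.27 TPM. The other Cbln2 neurons with Myd88 at 0, which passed, were TL neurons 57, 142 and 199 and LS neurons 182 and 183. The part of neuron quality in the Myd88 values was not tested.

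**Figure D2:**
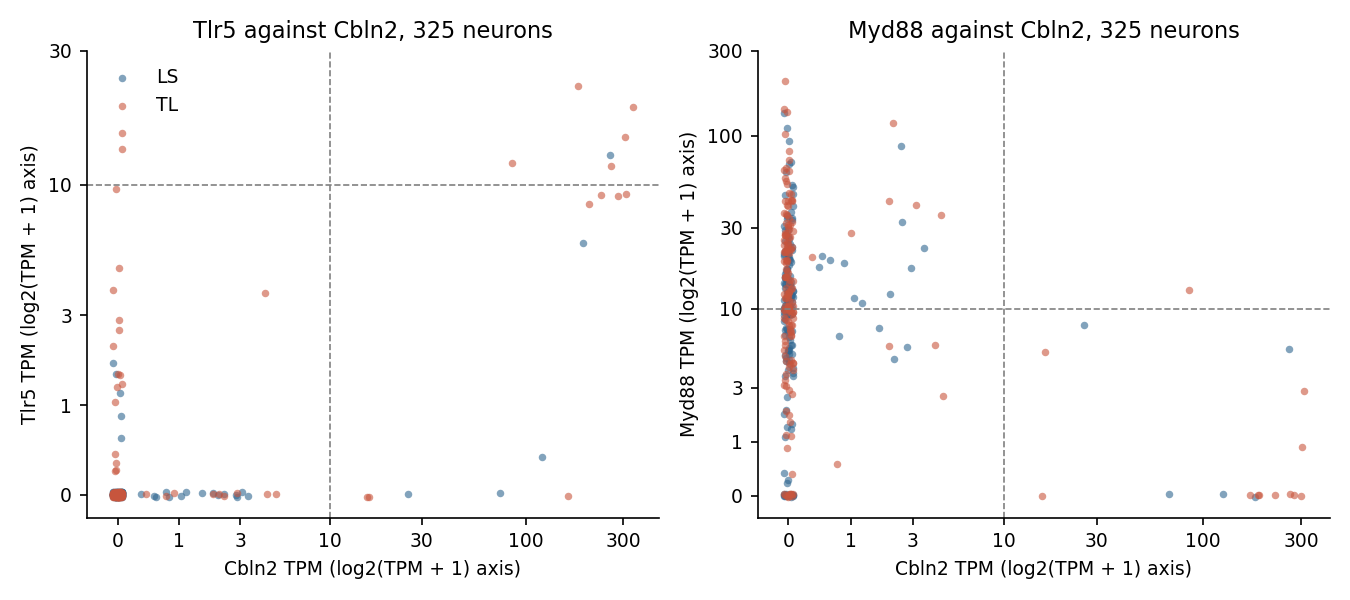
TPM of Tlr5 (left) and Myd88 (right) against Cbln2 TPM in 325 neurons, both axes on a log2(TPM + 1) scale, with TL in red, LS in blue and dashed lines at 10 TPM. The 10 neurons with the highest Cbln2 all have Tlr5 at 5.88 TPM or more, and Myd88 lies below 10 TPM in 16 of the 17 neurons to the right of the line.

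The 8 Tlr5 neurons shared further features. Their Tlr5 levels were 22.6, 18.8, 15.1, 14.8, 13.8, 12.9, 11.9 and 11.5 TPM. All 8 had Piezo2, the mechanically gated channel of touch and stretch, at 10 TPM or more, and 0 of the 180 neurons with less Piezo2 had Tlr5 at this level, which allows a share of up to 1.67%. Mean Tlr5 was 1.40 TPM in the 145 Piezo2 neurons and 0.0185 in the rest, and was higher in 5 of 5 plates. For Piezo2, 8.7% of the wider gene set had a mean at least 2-fold higher and 7.71% at least 2-fold lower. Within the 17 Cbln2 neurons, 12 of the 13 with Piezo2 had Tlr5 above 0. Gfra3, the receptor for artemin that marks peptidergic nociceptors, was below 10 TPM in 7 of the 8. The 2 Tlr5 neurons without Cbln2, TL neurons 22 and 44, had Fabp7 at 272 and 173 TPM and Myd88 at 42.1 and 10.2 TPM. Markers of macrophages summed to at most 10.99 TPM in the 8 neurons, with a median of 3.80, and C1qa, C1qc, Ptprc, Tyrobp and Fcer1g were at 0 in all of them. These 5 were rare in any case, each at 10 TPM or more in at most 2 of 325 neurons. They were also at 0 in all 17 Cbln2 neurons.

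Tlr4 was related to Smr2, which encodes a secreted submaxillary gland peptide and was used by the authors as the marker of the peptidergic subtype mPEPa. Smr2 was at 10 TPM or more in 24 neurons, 17 TL and 7 LS. Tlr4 was present in 3 of these 24 (12.5%, 95% CI 2.66 to 32.4) and 7 of the 301 others (2.33%, 95% CI 0.940 to 4.73), so the intervals overlapped. The means of 3.44 and 0.594 TPM differed 5.80-fold, with the higher mean in the Smr2 neurons in 5 of 5 plates. Such a 2-fold difference was seen in 3.78% of the wider gene set in this direction and 23.8% in the other. Tlr4 was above 0 in 13 of the 24 Smr2 neurons and 42 of the 301 others. Within LS, mean Tlr4 was 4.05 TPM in 7 Smr2 neurons and 0.118 TPM in 151 others. Within TL it was 3.19 TPM in 17 and 1.07 TPM in 150. Tlr5 was at 0 in all 24 Smr2 neurons.

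The level of Tlr4 did not follow that of Smr2 among the highest neurons. The 4 neurons with the highest Smr2 comprised LS neuron 171, with Tlr4 at 7.14 TPM, and 3 neurons with Tlr4 at 0. Of these 3, LS neurons 170 and 181 did not pass the filter on depth, genes and mitochondrial share. Median genes detected were 11065.5 in the 24 Smr2 neurons and 13775 in the 301 others. The part of neuron quality in the Tlr4 values was not tested. The 3 neurons with both genes at 10 TPM or more had Smr2 at 411, 80.9 and 73.8 TPM. Leaving out plate 4, which held 2 of these 3, left Tlr4 in 1 of 19 Smr2 neurons (5.26%) and 5 of 232 others (2.16%). Among neurons with Fabp7 below 10 TPM, 0 of 7 Smr2 neurons and 1 of 102 others had Tlr4 at 10 TPM or more. Mean Tlr4 in these groups was 1.42 TPM with Smr2 and 0.273 TPM without. Tlr4 was above 0 in 2 of the 7 and in 10 of the 102. The 2 were LS neuron 171 at 7.14 TPM and TL neuron 137 at 2.79 TPM. Of the 7, TL neurons 88 and 137 and LS neurons 170 and 181 did not pass that filter. Over the 320 neurons of plates 2 to 6, the mean within-plate Spearman correlation of Tlr4 with Smr2 was 0.396, with a range over plates of 0.279 to 0.595. Neurons of a plate share their library preparation and differ in depth, and both genes were at 0 in most of them. The 5 genes most like Tlr4 by this measure were AI427809, Gm43670, A830018L16Rik, Pear1 and Gm43318, at 0.467 to 0.408.

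**Figure D3:**
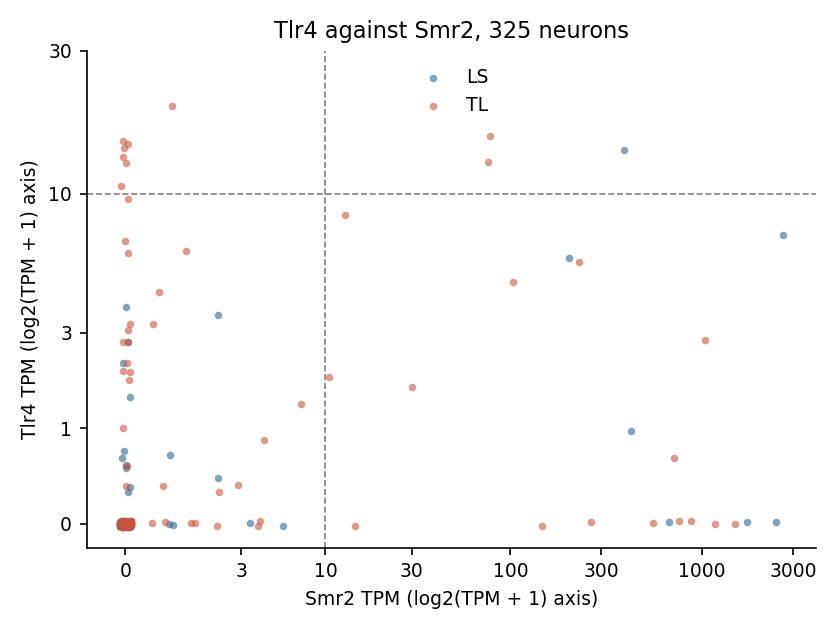
TPM of Tlr4 against Smr2 in 325 neurons, both axes on a log2(TPM + 1) scale, with TL in red, LS in blue and dashed lines at 10 TPM. Of the 24 neurons to the right of the line 13 have Tlr4 above 0, and 7 of the 10 neurons above the horizontal line have less than 10 TPM of Smr2.

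Of 4 groups of neurons set by Gfra3 and Piezo2, Tlr4 was most frequent where both were present. These genes divided the 325 neurons into 158 with Gfra3 alone, 120 with Piezo2 alone, 25 with both and 22 with neither. Tlr4 was present in 5 of the 25 neurons with both (20.0%, 95% CI 6.83 to 40.7), in 3 of 158 with Gfra3 alone (1.90%), in 2 of 120 with Piezo2 alone (1.67%) and in 0 of 22 with neither. Mean Tlr4 was 4.202 TPM in the neurons with both genes and 0.521 TPM in the other 300, an 8.06-fold ratio. Of the wider gene set, 4.71% had a mean at least 2-fold higher and 12.3% at least 2-fold lower in the neurons with both. The mean was higher in neurons with both genes in plates 2 to 5, and in plate 6 the only 2 such neurons were at 0. All 5 were TL neurons, of 18 TL neurons with both genes. This grouping was added after the data had been seen.

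Gfra3 and Piezo2 taken singly called 0 of the 4 genes compared, where 5.23% of all genes were called higher and 5.81% lower with Gfra3, and 6.26% higher and 4.43% lower with Piezo2. Within a segment they did call genes. Myd88 was called higher with Gfra3 in TL, where 7.82% of all genes were called higher and 5.81% lower. In LS Cd14 was called lower with Gfra3 (1.16 against 2.503 TPM), where 5.98% of all genes were called higher and 7.14% lower, and higher with Piezo2 (2.78 against 0.975 TPM), where 6.39% were called higher and 4.77% lower. Both Cd14 calls were lost without LS neuron 8, at 81.5 TPM, when the means were 1.16 against 1.44 and 1.67 against 0.975 TPM. In the wider set of all neurons 9.29% were at least 2-fold higher and 8.04% lower with Gfra3, among the latter Tlr5, which was present in 1 of 183 Gfra3 neurons and 7 of 142 others. Ticam1 differed most in its share between Piezo2 groups. It was present in 60 of 145 Piezo2 neurons (41.4%, 95% CI 33.3 to 49.8) and 32 of 180 others (17.8%, 95% CI 12.5 to 24.2), with means of 9.52 and 5.82 TPM, and its mean was higher in 5 of 5 plates. The ratio of these means was 1.64, but without rescaling the means were 9.82 and 9.43 and nearly equal. Ly96 was present in 39.3% of Piezo2 neurons and 28.9% of the others. Myd88 averaged 21.7 TPM in 183 Gfra3 neurons and 14.3 TPM in 142 others and was higher in 5 of 5 plates, with shares of 57.4% and 53.5%. The values differed by segment, a difference that was not tested. In TL Myd88 was present in 67 of 100 Gfra3 neurons (67.0%) and 28 of 67 others (41.8%), with a ratio of means of 2.18. In LS it was present in 38 of 83 (45.8%) and 48 of 75 (64.0%), with a ratio of 0.982. Fabp7 was at 10 TPM or more in 83 of the 100 TL neurons with Gfra3 and 47 of the 67 others. In LS it reached this level in 39 of 83 and 47 of 75. Over both segments these counts were 122 of 183 and 94 of 142. The part of glial RNA in the Myd88 differences by Gfra3 was not tested. In Smr2 neurons Cd14 was called lower, with 1 of 24 neurons against 16 of 301 and means of 0.752 and 1.86 TPM, where 14.7% of all genes were called lower and 2.3% higher. The direction of the Cd14 share rested on 1 neuron and turned under 5 alternatives.

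At 10 TPM or more, a complete set of the lipopolysaccharide receptor genes was seldom seen, as Tlr4 itself was present in only 10 neurons. Of the 10 Tlr4 neurons, Myd88 was present in 9 (95% CI 55.5 to 99.7%), against 172 of 315 without Tlr4 (54.6%, 95% CI 48.9 to 60.2). Of the 10, 9 also had Fabp7 at 10 TPM or more, and Myd88 was present in 64.8% of all neurons at that Fabp7 level. Ticam1 was present in 6 of the 10 and in 86 of the 315 (27.3%). Ly96 was present in 3 of the 10 and 106 of the 315 (33.7%), a difference well inside the interval of 6.67 to 65.2% around the 3 of 10. Cd14 was present in 0 of the 10, although TL neuron 87 had 0.748 TPM. Tlr4, Ly96 and Myd88 were all at 10 TPM or more in 3 neurons. They were all above 0 in 46 neurons, of 55 with Tlr4 above 0. With Cd14 added, these numbers were 0 and 7.

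Few neurons reached the threshold for any receptor. In total 26 neurons had at least 1 receptor at 10 TPM or more, and 0 had 2 or more. Above 0 TPM, 145 neurons had at least 1 receptor and 38 had 2 or more. With 8 to 10 neurons for each receptor at 10 TPM, the count of 0 says little about whether receptors go together. Above 0, Tlr4 was found in 20 of 76 neurons with Tlr3 (26.3%, 95% CI 16.9 to 37.7) and 35 of 249 without (14.1%, 95% CI 9.99 to 19.0). The intervals overlapped, a level above 0 could rest on 1 read, and depth was not matched between these neurons. Conversely, 162 neurons (49.8%) had Myd88 without any of the 6 receptors at 10 TPM or more, and 64 neurons (19.7%) had none of the 10 genes. Tlr3 was present in 8 neurons, and Ticam1, its adaptor, in 0 of these 8 and in 92 of the 317 others (29.0%, 95% CI 24.1 to 34.4). Of the 8, 6 had Fabp7 at 1000 TPM or more, a range in which Ticam1 was present in 1 of 23 neurons. Above 0, Ticam1 was found in 62 of 76 neurons with Tlr3 (81.6%) and 184 of 249 without (73.9%).

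**Figure D4:**
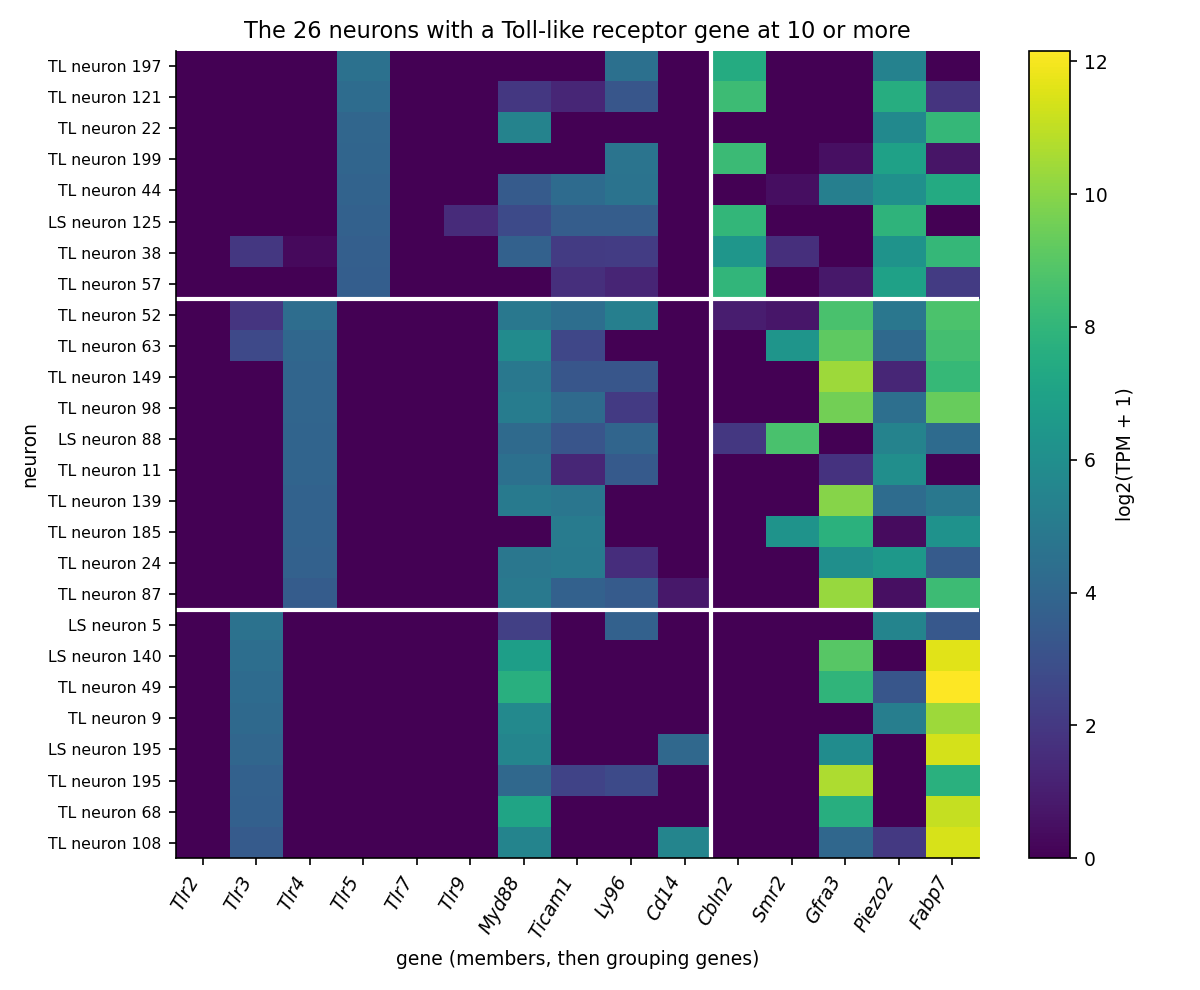
Colour gives log2(TPM + 1) of the 10 genes and the 5 grouping genes in the 26 neurons with Tlr5 (top 8), Tlr4 (middle 10) or Tlr3 (bottom 8) at 10 TPM or more. The Tlr5 neurons have Piezo2 and mostly Cbln2, the Tlr4 neurons have Myd88 in 9 of 10, and the Tlr3 neurons have Fabp7 at 1000 TPM or more in 6 of 8 and Ticam1 at 0 in 7 of 8.

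Myd88 and Cd14 were higher in neurons with more Fabp7, while Ticam1 and Ly96 were not called. Fabp7 encodes the brain fatty acid binding protein of satellite glia, and glial fragments can remain attached to a picked neuron. Myd88 was present in 140 of 216 neurons with Fabp7 at 10 TPM or more (64.8%, 95% CI 58.0 to 71.2) and in 41 of 109 with less (37.6%, 95% CI 28.5 to 47.4). Its mean was 22.8 against 9.81 TPM, a ratio of 2.32, and was higher in 5 of 5 plates. Cd14 was present in 15 of 216 (6.94%, 95% CI 3.94 to 11.2) and 2 of 109 neurons (1.83%, 95% CI 0.223 to 6.47), with means of 2.38 and 0.588 TPM. These were the 2 of 4 genes called higher, where 4.2% of all genes were called higher and 0.782% lower. Ticam1 and Ly96 had means of 7.92 against 6.59 and 8.86 against 8.72 TPM and were not called, the latter 8.07 against 8.72 TPM without TL neuron 43. The share of neurons with Ticam1 was nonetheless 32.4% (95% CI 26.2 to 39.1) against 20.2% (95% CI 13.1 to 28.9), and within TL 34 of 130 (26.2%) against 2 of 37 (5.41%). That of Ly96 was 35.2% against 30.3%. In the wider gene set 8.4% were at least 2-fold higher and 2.63% lower, with Tlr3 (1.15 against 0.266 TPM) and Tlr4 (1.04 against 0.347 TPM) among the former and Tlr5 (0.326 against 1.25 TPM) among the latter.

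The relation was not even over the range of Fabp7, which was divided into 5 ranges after the data had been seen. Myd88 was present in 37.7% of 53 neurons with Fabp7 at 0, in 37.5%, 46.6% and 70.4% of the next 3 ranges, and in 18 of 23 neurons at 1000 TPM or more (78.3%, 95% CI 56.3 to 92.5), where its mean was 66.3 TPM. Tlr3 was present in 6 of these 23 neurons (26.1%, 95% CI 10.2 to 48.4) and in 2 neurons of the other ranges. Cd14 was present in 7 of the 23 (30.4%, 95% CI 13.2 to 52.9). Ticam1 and Ly96 were each present in only 1 of the 23 (4.35%, 95% CI 0.110 to 21.9), against 36.3% and 37.8% in the 135 neurons from 100 to below 1000 TPM. Tlr5 was at 0 in all 23, and Tlr4 was above 0 in 1.

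These 23 neurons, 17 TL and 6 LS, stood apart in other measures. Their median was 8761 genes detected, against 12874 to 14227 in the other ranges, and 8 of the 23 passed a filter at 3 median absolute deviations on depth, genes and mitochondrial share. The summed neuronal markers had a median of 7322 TPM in them, against 14793 to 15875 TPM elsewhere, while the satellite glia markers had a median of 46703 TPM. Without them the ratio of means fell to 1.79 for Myd88, below the threshold, and to 2.93 for Cd14, and Tlr3 was present in 1 of 193 against 1 of 109 neurons. Ticam1 was then present in 69 of 193 neurons (35.8%) against 22 of 109 (20.2%). The 193 neurons still included TL neuron 43 and LS neuron 8, with Cd14 at 89.1 and 81.5 TPM. Within LS, mean Cd14 was 2.56 TPM with Fabp7 at 10 TPM or more and 0.889 TPM with less. Without LS neuron 8 these means were 1.63 and 0.889 TPM, less than 2-fold apart. Among the 268 neurons passing the filter the means were 20.0 and 10.7 TPM for Myd88 and 1.35 and 0.745 TPM for Cd14, both less than 2-fold apart. Myd88 was still present in 122 of 193 neurons (63.2%) with Fabp7 from 10 to below 1000 TPM. The authors excluded cells with satellite glial genes before clustering, and the labels do not mark which cells these were.

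**Figure D5:**
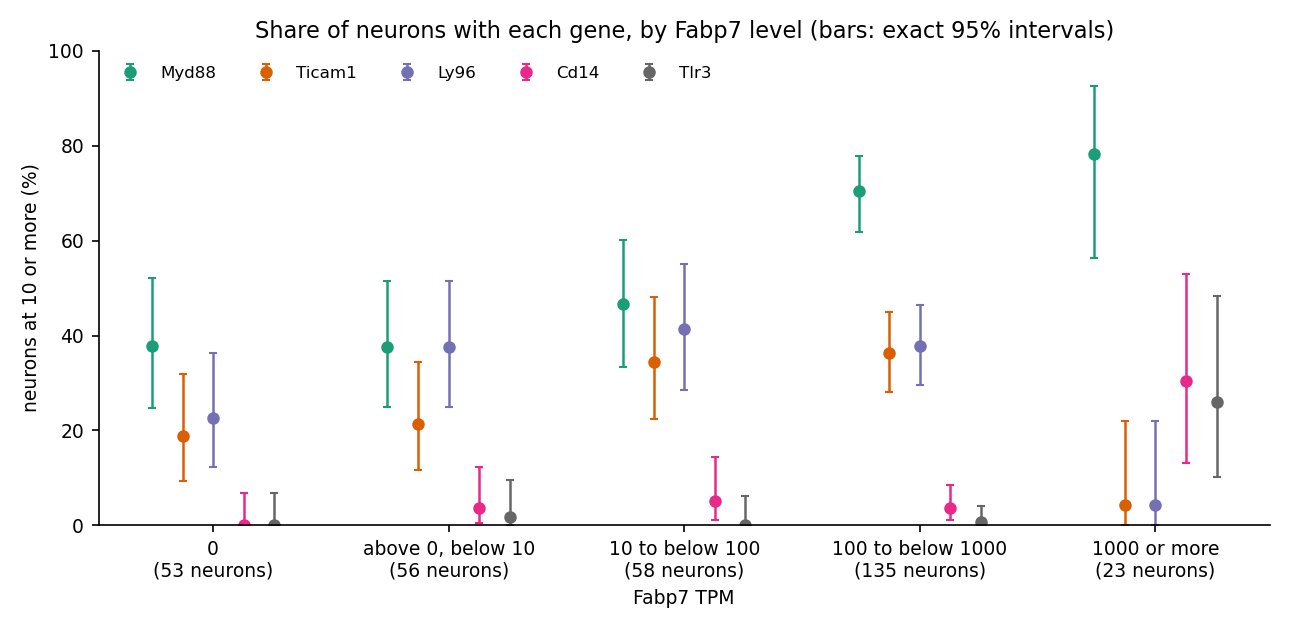
Percentage of neurons with each gene at 10 TPM or more, with exact 95% intervals, in 5 ranges of Fabp7 TPM. Myd88 is at 37.5% to 46.6% below 100 TPM and above 70% beyond it, while Cd14 and Tlr3 are highest, and Ticam1 and Ly96 lowest, in the 23 neurons at 1000 TPM or more.

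The genes most like each member differed between the members. Likeness was the mean of the Spearman correlations within plates 2 to 6, over 320 neurons that share plates and differ in depth, and is a description. Myd88 had a value of 0.421 with Fabp7 (range over plates 0.204 to 0.582), and its 4 nearest genes, at 0.471 to 0.456, were Nr4a1, Acsbg1, Mmd2 and Kcnj10. Kcnj10 encodes the inward rectifier potassium channel of satellite glia and was in the glial marker list, and Nr4a1 is an immediate early gene. Ticam1 was nearest to Ppp2r1a, Esyt1, Cacna2d1, Aplp1 and Ptprs, at 0.455 to 0.403, among which Cacna2d1 encodes a calcium channel subunit of sensory neurons. Ly96 was nearest to Slc7a1, Syt4, Parp4, Hist2h4 and Trib3, at 0.410 to 0.382. The correlations of Ticam1 and Ly96 with Fabp7 were -0.04 and -0.15. For Cd14 the nearest were Lcat, Col4a1, Mt2, Rcn3 and Hbegf, at only 0.275 to 0.260.

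Glial signal was high in most of the Tlr3 neurons. Tlr3 levels in the 8 neurons were 23.0, 19.7, 18.1, 17.0, 15.2, 12.8, 12.3 and 10.2 TPM, and 6 of them had Fabp7 at 1000 TPM or more. The satellite glia markers summed to a median of 46034 TPM in the 8, against 1161 TPM in the 317 others. LS neuron 5 was the exception, with the highest Tlr3 at 23.0 TPM on 332 reads, Fabp7 at 9.24 TPM and Piezo2 at 43.8 TPM. The 10 Tlr4 neurons had Fabp7 at 10 TPM or more in 9 but at 1000 TPM or more in 0, with a median glial sum of 3442 TPM. TL neuron 11 had Tlr4 at 14.2 TPM with Fabp7 at 0. Of the 17 Cd14 neurons, the highest was TL neuron 43, at 89.1 TPM, which also had the highest Ly96 of all neurons at 178 TPM, with Fabp7 at 40.9 TPM and Myd88 at 1.57 TPM. Its 6 endothelial markers (Pecam1, Cldn5, Cdh5, Flt1, Egfl7 and Kdr) summed to 22309 TPM and were all at 10 TPM or more, while the next highest sum of any neuron was 417 TPM and the median 44.1 TPM. The part of endothelial RNA in its Cd14 and Ly96 levels was not tested. The share of Myd88, Tlr3 and Cd14 reads that came from glia was not tested.

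Other genes of the pathway were read from lists made by name. Of 9 further receptors and receptor partners, Tlr1, Tlr6, Tlr8 and Tlr13 were at 10 TPM in 0 neurons and above 0 in 3, 2, 5 and 17, Tlr11 was listed at 0 throughout, and Tlr12 was present in 2. Cd180, a receptor of the family without a signalling domain, was above 0 in 79 neurons but at most 5.16 TPM. Its partner Ly86 (MD-1) was the exception, present in 247 neurons with a mean of 378 TPM and a maximum of 7925 TPM. Mean Ly86 was 637 TPM in TL and 104 TPM in LS, 6.11-fold lower in LS and lower in 5 of 5 plates. It was 3.06-fold higher with Piezo2 and 2.56-fold higher with Smr2, and it was present in all 24 Smr2 neurons but in 3 of 17 Cbln2 neurons. Lbp, which delivers lipopolysaccharide to Cd14, was present in 9 neurons, and all 9 were TL with Gfra3.

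Of 19 adaptors and proximal kinases 14 passed the filter, and 0 were called between LS and TL, with a median ratio of 1.07 against 1.03 over all genes compared. The leading genes were Tollip (mean 139 TPM, 322 neurons), the chaperones Hsp90b1 (124 TPM) and Cnpy3 (33.6 TPM), which fold Toll-like receptors, and Sarm1 (21.5 TPM), an adaptor and NAD-cleaving enzyme of axon degeneration. Sarm1 was 2.53-fold higher with Piezo2 and 2.26-fold lower with Gfra3, in 5 of 5 plates each. In Cbln2 neurons 1 of the 14 was called higher and 2 lower, beside 5.1% and 21.6% of all genes. Of 14 genes of the NF-kB and interferon branches 11 passed the filter, led by Nfkbia (122 TPM), Tbk1 (55.2 TPM), Rela (39.7 TPM) and Irf7 (14.2 TPM), and 2 were called higher and 1 lower in LS, beside 4.11% and 4.46% of all genes. In Cbln2 neurons 5 of the 11 were called lower and 1 higher, beside 21.6% and 5.1% of all genes, with a median ratio of 0.658 against 0.850 over all genes. Nfkbia was 4.84-fold lower there, at 26.3 against 128 TPM, and Irf7 was 4.63-fold lower, at 3.19 against 14.8 TPM. Most Cbln2 neurons had Fabp7 below 10 TPM, and the part of glial RNA in these differences was not tested. Of the danger signals that can engage these receptors, Hspd1 averaged 168 TPM and Hmgb1 35.1 TPM, and neither was called in any of the 6 comparisons, while S100a8 and S100a9 were present in 13 and 5 neurons.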

How the data were processed

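Neurons were sequenced by Smart-seq2 as 75 bp paired-end reads. Per the submitters' processing notes, bcl2fastq 2.15.0.4, STAR 2.4.1 and featureCounts 1.4.4 were used with GRCm38.p3. The authors deposited log2(x + 1) values, proportional to reads over gene length, for 325 neurons left after their quality filter. Before the clustering that gave the subtypes, they also excluded cells with satellite glial genes. That step was not applied here, and all 325 neurons were kept. The other labelled neurons (36 TL, 38 LS) and 13 bath controls were not analysed here. The values x were rescaled to TPM. Reads were recovered as whole numbers from x and gene length, with 65.5% of values above 0 whole within a relative tolerance of 1e-09 with GENCODE M21 lengths and other lengths found from the values. The script was tested on simulated data. The 10 genes and all lists were chosen with earlier results of these data known. Genes named are the 10 members, 5 grouping genes, the 4 highest of each list, further receptors, and the 5 most alike genes, of which 1 is not reported here. No test was run, since neurons are not replicates. Plates 2 to 6 served as strata. Alternatives changed the unit, thresholds, filter, depth and plates 1 at a time. Grouping by both Gfra3 and Piezo2, Fabp7 ranges, the wider gene set and leaving out TL neuron 43 or LS neuron 8 came after the values were known. No doublet caller was run on these hand-picked cells. Python 3.11.15 with numpy 2.4.6, pandas 2.3.3 and scipy 1.17.1 was used.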

Additional observations from a re-analysis of the deposited data

How the results depend on the processing

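Differences are given in percentage points of neurons, and counts are of genes called among those passing the filter. Tlr5 by Cbln2 (34.6 points) was 63.7 points with CPM and 63.1 points with detection above 0. Tlr4 by Smr2 (10.2 points) was 36.9 points with detection at 1 TPM, 40.2 points above 0 and reversed to -0.98 points with Fabp7 below 10 TPM. Only 7 Smr2 neurons entered that last comparison, in which mean Tlr4 was still higher with Smr2, at 1.42 against 0.273 TPM. The count by segment (0) was 1 with CPM, without rescaling, after thinning to 500000 reads or with Fabp7 below 10 TPM, and 2 with detection at 1 TPM or above 0. By Gfra3 (0) it was 1 with detection at 1 TPM or above 0, grouping at 50 TPM, no rescaling or without plate 6. By Piezo2 (0) it was 1 with CPM, thinning, grouping at 50 TPM or without plate 4, and 2 with detection at 1 TPM or above 0. By Fabp7 (2) it was 1 with CPM, thinning, grouping at 50 TPM or without plate 2 or 5, 0 after the 3 MAD filter, and 5 with detection at 1 TPM or above 0. Where detection was at 1 TPM or above 0, 7 genes passed the filter in place of 4. The difference of Cd14 by Smr2 reversed to 0.815 points with CPM, 1.96 after the filter, 0.657 after thinning, 0.612 without plate 2 and 0.652 without plate 5, each with 1 Smr2 neuron. The causes were not tested. Tlr5 stayed more frequent with Cbln2, and Myd88 less frequent, under every alternative run.

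No neuron is tied to an animal, so no spread between animals is given. No paired analysis was possible because no label ties TL to LS neurons, whose replicate numbers only name them. Plates 2 to 6 held both segments and were compared within plate by direction alone. Depth limits the rare receptors, whose calls at 10 TPM rested on as few as 10 reads for Tlr3 and 18 for Tlr4, and 4 neurons lay below the depth used for thinning.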

Other observations

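The chemokines and cytokines that Toll-like receptor signalling can induce were read from a list of 7 genes, of which Cxcl10, Ccl2, Cxcl1 and Il6 passed the filter and Tnf, Il1b and Ifnb1 were present in 2, 1 and 0 neurons. The neurons came from dissociated ganglia in primary culture. Ccl2 was present in 191 neurons with a mean of 69.7 TPM, Cxcl10 in 168 with a mean of 279 TPM, Il6 in 81 with a mean of 13.8 TPM and Cxcl1 in 80 with a mean of 37.5 TPM. None of the 4 was called between LS and TL. Of the 4, 3 were called lower in Cbln2 neurons, where 21.6% of all genes compared were called lower, 3 in Smr2 neurons (14.7%) and 2 in Piezo2 neurons (4.43%). In Cbln2 neurons Il6 was present in 0 of 17 against 81 of 308 neurons, Ccl2 in 4 against 187, at 5.81 and 73.3 TPM, and Cxcl10 in 3 against 165, at 8.37 and 293 TPM. All 3 were lower in 5 of 5 plates. Of the 17 Cbln2 neurons 16 had Fabp7 below 10 TPM, a group in which Cxcl10 was rare in any case. The share of Cbln2 neurons with Cxcl10, 3 of 17, was not below the share in that Fabp7 group as a whole. The part of glial RNA in these differences was not tested.

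Cxcl10 was rare in neurons with little Fabp7. It was present in 163 of 216 neurons with Fabp7 at 10 TPM or more and in 5 of 109 with less, with means of 418 and 1.55 TPM, and was higher in 5 of 5 plates. Il6 was more frequent with Gfra3, in 67 of 183 neurons against 14 of 142, with means of 20.2 and 5.55 TPM, and its ratio across Fabp7 was 1.27.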
